A study of Mus musculus with 4 samples.

Results

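The strain by diet difference in the aorta is the diet difference of Ath29 congenic mice (Western minus chow) minus the diet difference of B6 control mice. It is given on the log2 scale, so that 1 means that the ratio of Western to chow was 2-fold larger in Ath29 than in B6. All 4 arrays of the series enter it, 1 per group, and it was computed for the 45037 of 45101 probe sets that are not array controls. After the steps for low values and gene names, 11718 genes had a value. Of these, 301 belonged to lists of heart muscle, skeletal muscle, white fat, brown fat and oxidative phosphorylation genes and were set aside, which left 11417 genes to describe.

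The B6 groups were apoE-/- mice of the C57BL/6 strain, labelled for atherosclerosis. The Ath29 groups, called Ch9 in the sample titles, carry the same strain label and are labelled for resistance to atherosclerosis, while the apoE genotype is written for the controls alone. Weaning was at 3 weeks of age, and the diet was switched a week later, at 4 weeks, for 2 weeks. Total RNA was described as aortic in the source labels and the design, and as liver in the extraction protocol. Whether RNA of 1 mouse or of a pool was hybridised is not in the labels. Since each group is 1 array, replicate error is unknown and no difference below has a test, and strain or diet cannot be told apart from the mouse, the dissection or the array. Fewer cells of a type and less RNA per cell cannot be told apart in these bulk samples either.

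The aortic wall is built of smooth muscle cells, which contract and lay down collagen, elastin and proteoglycans, and of fibroblasts in the outer coat, with an endothelial lining. Outside it lies perivascular fat, which in the mouse chest resembles brown fat. A Western diet raises plasma cholesterol in apoE-/- mice, and monocytes enter the wall, become lipid-laden macrophages and secrete cytokines. Interferons act through transcription factors that bind the interferon-stimulated response element (ISRE) in the promoters of their target genes, while NF-kB binds the promoters of many cytokine genes.

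The promoters of 4 interferon-response genes and of Il6 are shown because these genes are described below and hold these elements close to the start of the gene. The ISRE was searched as GAAA, any 2 bases and GAAA again, on both strands, and overlapping matches were kept. The NF-kB motif was searched by its standard consensus, also on both strands. The sequences are RefSeq promoter sequences of GRCm38.p6, read 5′ to 3′ on the strand of the gene, and capitals mark the matched bases. Rsad2 is on the minus strand at chr12:26456523-26456612, Ifit1 on the plus strand at chr19:34640745-34640853, Stat2 on the plus strand at chr10:128270248-128270325, Irgm1 on the minus strand at chr11:48871421-48871490, and Il6 on the plus strand at chr5:30013030-30013113.
Rsad2: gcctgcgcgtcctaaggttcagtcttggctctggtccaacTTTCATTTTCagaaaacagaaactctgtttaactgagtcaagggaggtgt
Ifit1: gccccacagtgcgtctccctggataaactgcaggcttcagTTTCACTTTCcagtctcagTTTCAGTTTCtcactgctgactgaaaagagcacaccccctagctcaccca
Stat2: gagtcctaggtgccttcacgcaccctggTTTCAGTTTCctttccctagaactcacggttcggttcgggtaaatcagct
Irgm1: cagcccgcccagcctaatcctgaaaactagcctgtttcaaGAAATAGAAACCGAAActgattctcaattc
Il6: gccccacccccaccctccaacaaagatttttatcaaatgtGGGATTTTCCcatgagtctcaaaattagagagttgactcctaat
The ISRE match of Rsad2 lies 120 bases before the start of the gene and that of Stat2 222 bases before it. Ifit1 holds 2 matches, 104 and 85 bases before its start, and Irgm1 holds 2 overlapping matches at 30 and 24 bases. The NF-kB match of Il6 lies 44 bases before its start. Within 250 bases upstream, 2.98% of 32851 mouse promoters hold the ISRE and 7.25% hold the NF-kB motif.

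Genes of heart muscle and fat differed most between the arrays and are given here because other genes share their order. Below, the 4 values of a gene or list follow the order B6 chow, B6 Western, Ath29 chow, Ath29 Western. The summed intensity of the 92 measured brown fat genes was 127963, 213558, 179947 and 148099, and that of the 75 white fat genes was 99299, 151195, 131900 and 114429. The 58 heart muscle genes summed to 31822, 59910, 33327 and 31998. All 3 lists were highest on the B6 Western array, and both fat lists were lowest on the B6 chow array. Their median strain by diet differences were -1.16, -1.06 and -0.56, with the heart genes Myl7 at -8.25 or lower and Myh6 at -6.25 and the brown fat gene Elovl3 at -4.53 among the lowest members. The 32 measured contractile smooth muscle genes were highest on B6 chow and lowest on Ath29 chow, with a median log2 intensity of 11.13 on B6 chow, 10.69 on B6 Western, 10.43 on Ath29 chow and 10.73 on Ath29 Western. The ratio of 3′ to middle probe sets of the actin control, which is larger where RNA or cRNA is shorter, was 5.10, 5.63, 10.2 and 7.62. The 3′ to 5′ ratio of the actin control was 24.4, 25.4, 31.5 and 28.5. The 3′ to 5′ ratio of the Gapdh control ran the other way, with 31.3, 29.0, 22.8 and 28.0. With both 3′ to 5′ ratios between 22.8 and 31.5, the 5′ control probe sets read far below the 3′ ones on every array. Of the hepatocyte list, 4 of 24 genes were measured, and albumin (Alb) read 33.7, 54.5, 64.0 and 56.0, near the level of 27.4 used to filter low values.

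**Figure D1:**
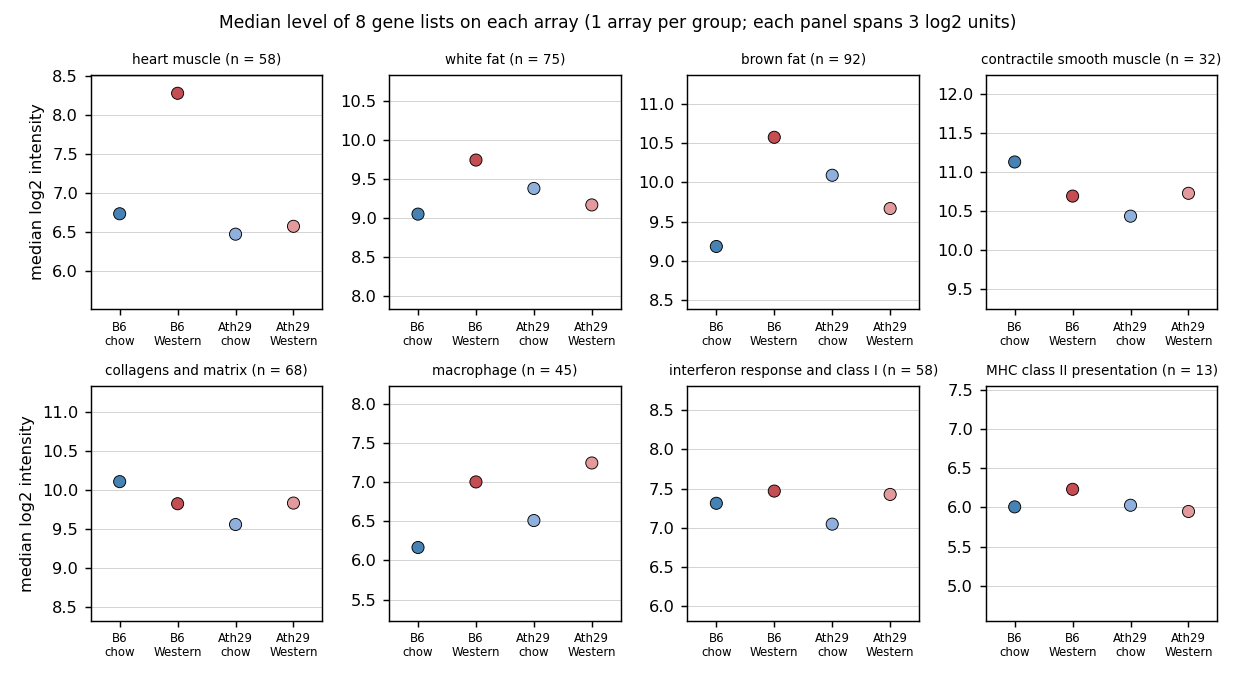
Median log2 intensity of 8 gene lists on the 4 arrays, 1 point per array, with the number of measured members over each panel; every panel spans the same log2 range. Brown fat has its highest median on B6 Western and its lowest on B6 chow, smooth muscle its highest on B6 chow (11.13) and its lowest on Ath29 chow (10.43), and the macrophage list is higher on both Western arrays than on both chow arrays.

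Outside the muscle and fat lists, 574 of 11417 genes (5.03%) had a strain by diet difference at least 2-fold higher in Ath29, and 648 (5.68%) at least 2-fold lower. The median over all 11718 genes was 0.11, with quartiles of -0.28 and 0.44, so a list is set against 0.11 and not against 0. Counts of list members past 2-fold are to be set against the shares of all 11718 genes, 4.95% higher and 6.76% lower. The diet difference within a strain was 2-fold higher for 3.33% and 2-fold lower for 1.19% of these 11417 genes in B6, and for 1.34% and 0.771% in Ath29. Among the 574 higher genes, 95 were 2-fold lower on Western diet in B6 alone, 88 were 2-fold higher on Western diet in Ath29 alone and 383 reached 2-fold in neither strain. Among the 648 lower genes, 277 were 2-fold higher on Western diet in B6 alone, 51 were 2-fold lower in Ath29 alone and 298 reached 2-fold in neither. A gene could thus pass by adding up small opposite diet differences. Across the 11417 genes the diet differences of the strains, which share no array, had a correlation of -0.15, a description across genes that are not independent. If the arrays were instead set to an equal median of the smooth muscle genes, the median of all genes moved by -0.86 and the counts became 43 higher and 3490 lower, so the balance of directions rests on the scale. Fos and Fmod, described below, had values of 1.97 and 0.65 on that scale.

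Many of the lower genes had the order of the fat lists. The B6 Western array was the highest for 476 of the 648 (73.5%) and the Ath29 chow array for 165. Picking genes by a lower difference leaves almost only these arrays as the highest. The B6 Western array was the highest and the B6 chow array the lowest for 364 of the 648 (56.2%). The same held for 71.5% of the 144 set-aside genes (47.8%) that were 2-fold lower. Because of the picking, the shares of all genes, 26.5% and 10.7%, are no baseline for these counts. Among the 574 higher genes, the B6 chow array was the highest and the Ath29 chow array the lowest for 204 (35.5%). Picking by a higher difference left B6 chow (357 genes) or Ath29 Western (205) as the highest for nearly all. The 16.5% of all genes with that order is thus no baseline either. What part the fat, the heart muscle or the control ratios had in these differences was not tested. A second probe set gives a partial check of a value on the same RNA. For the 193 lower genes with further probe sets, the median of those was also 2-fold lower for 76 (39.4%) and had the opposite sign for 30 (15.5%). For the 161 higher genes with further probe sets it was 2-fold higher for 32 (19.9%) and of opposite sign for 47 (29.2%), where 5.38% of all genes with further probe sets reach each side. On chromosome 9, which the sample titles name, 35 of 630 genes (5.56%) were higher and 32 (5.08%) lower, a total of 10.6% against 10.7% over the genome.

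**Figure D2:**
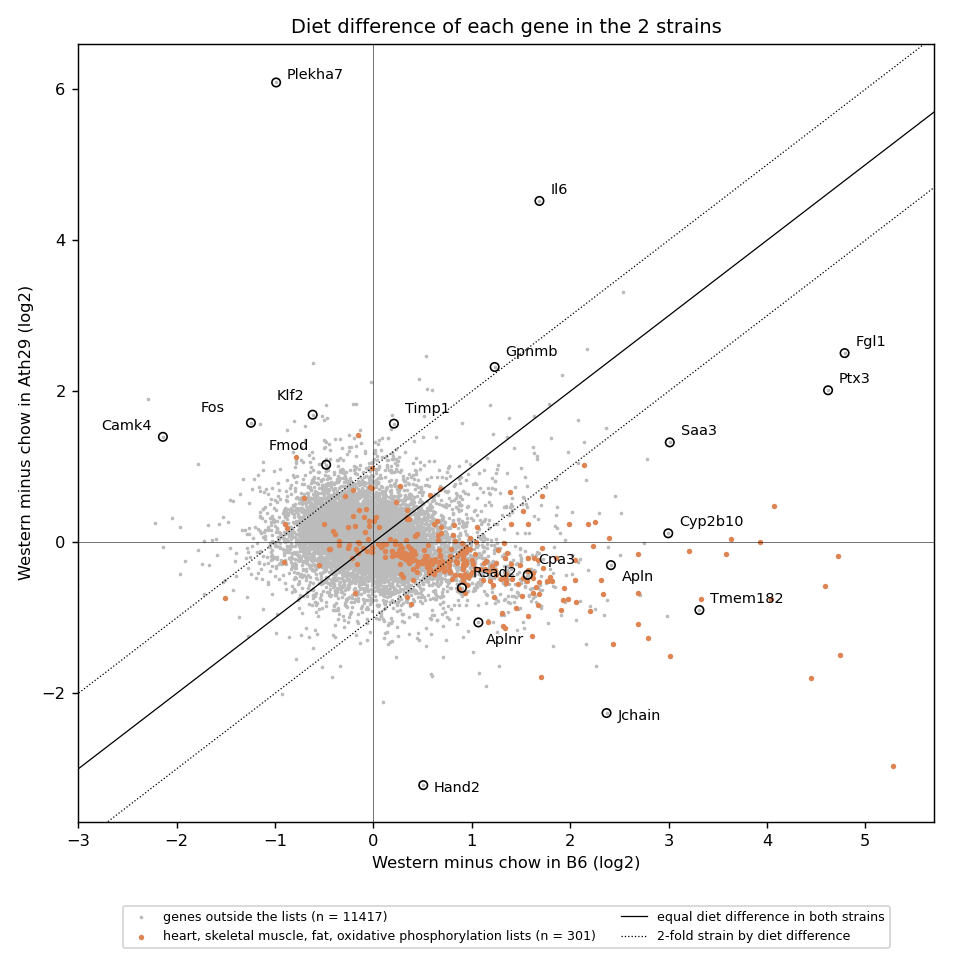
Western minus chow in log2 units in B6 (horizontal) and in Ath29 (vertical) for 11417 genes outside the muscle and fat lists (grey) and 301 genes in them (orange), each from 1 array per group; the solid line marks equal diet differences and the dotted lines a 2-fold strain by diet difference. Orange points spread to the lower right, Fos, Klf2 and Camk4 lie at the upper left, and Ptx3, Fgl1 and Saa3 are higher on Western diet in both strains, more so in B6; values at or below the floor are drawn at the floor (Il6, Plekha7, Jchain).

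Camk4, Fos, Klf2 and Rrad were among the 15 highest values with all 4 readings above the filter level. Camk4, a calcium-calmodulin kinase, had the highest of these, 3.54, from intensities of 140, 31.9, 41.2 and 109, with no other probe set above the filter. Fos, a subunit of the AP-1 transcription factor induced within minutes of stimulation, read 1456, 614, 180 and 540. Its diet difference was -1.25 in B6 and 1.58 in Ath29, a strain by diet difference of 2.83. Klf2, the flow-responsive transcription factor of endothelium, read 182, 119, 47.9 and 154, with a difference of 2.31. Rrad, a small GTPase that restrains calcium channels, read 514, 363, 166 and 511, with a difference of 2.12. All 3 genes were lowest on Ath29 chow and highest on B6 chow, with Rrad about as high on Ath29 Western.

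Fos and Klf2, which are on the immediate-early list, did not carry the whole list with them. Of 46 measured immediate-early genes, 5 were 2-fold higher and 4 were 2-fold lower, with a median of 0.24, against 4.95% higher and 6.76% lower among all genes. Ier3, a stress-induced survival gene, was higher at 1.36, from 712, 479, 344 and 593. The nuclear receptor Nr4a1 went the other way with 429, 1065, 419 and 420, a difference of -1.31. Its relative Nr4a3 had -1.23, and -1.32 with its other probe set, while Egr2, a zinc-finger factor, had -1.17 and -0.06 with its other probe set. For Nr4a1 the B6 Western array alone stood apart, and the other 3 were nearly equal.

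Smooth muscle genes were shifted as a group by a small amount. Of 32 measured contractile genes, 30 had a difference above 0, where 58.8% of all genes do. Of the 32, 7 (21.9%) were 2-fold higher, against 4.95% of all genes, and none 2-fold lower, against 6.76%. The median was 0.48, which is 0.37 above that of all genes, from -0.33 in B6 and 0.20 in Ath29. Myh11, the smooth muscle myosin heavy chain, read 2050, 1369, 833 and 1318, a difference of 1.25, and 0.78 with its other probe set. Myl9, the regulatory light chain, read 1580, 1245, 662 and 1103, a difference of 1.08. Mustn1, a small nuclear protein of muscle, had 1.86 from 263, 152, 102 and 215. Tpm1, a tropomyosin, had 1.22 with the brightest probe set and -1.52 and -0.05 with others above the filter, so its direction was not settled. Myh11, Myl9, Mustn1 and the list median thus had the order of Fos, highest on B6 chow and lowest on Ath29 chow. The actin and Gapdh control ratios had their extremes on the same arrays in opposite directions. They were 5.10 and 10.2 for actin 3′ to middle, 24.4 and 31.5 for actin 3′ to 5′ and 31.3 and 22.8 for Gapdh 3′ to 5′. The part of any of these ratios in the shift was not tested.

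Genes of the matrix that these cells make differed alike. Of 68 measured collagen and matrix genes, 64 had a difference above 0, with a median of 0.51. Of the 68, 10 (14.7%) were at least 2-fold higher, against 4.95% of all genes, and none 2-fold lower, against 6.76%. Fmod, fibromodulin, a proteoglycan that organises collagen fibrils and binds TGF-beta, read 1592, 1140, 1201 and 2448. Its difference was 1.51, and the 5 other probe sets above the filter gave 1.47 to 1.74, so the value did not rest on 1 probe set. The Ath29 Western array was highest for Fmod, unlike for the contractile genes. Col8a2, a short-chain collagen of vessel walls, had the same feature, with 60.2, 66.5, 50.7 and 132 and a difference of 1.24. Vcan, versican, the large proteoglycan of the aortic intima, read 1317, 891, 599 and 1141, a difference of 1.49, with 0.36 and 0.94 from other probe sets. Spon1, an adhesive matrix protein, had 1.27, and Prelp, a leucine-rich proteoglycan, had 1.38 with 0.12 from its other probe set.

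Matrix-regulating ligands lay on the same side. Of 38 measured TGF-beta and BMP genes, 30 had a difference above 0, with a median of 0.50. Of the 38, 8 (21.1%) were 2-fold higher, against 4.95% of all genes, and none 2-fold lower, against 6.76%. Gdf10, also called BMP3b, read 396, 280, 169 and 429, a difference of 1.84. Bmp4, a ligand made by endothelium and mesenchyme, read 358, 255, 200 and 370, a difference of 1.38. Tgfb3 had 1.11, Bmp6 had 1.06, the activin antagonist Fstl3 had 1.33, and the BMP target Id1 had 1.22. Gdf10 and Bmp4 were lowest on Ath29 chow and reached on Ath29 Western about the level of B6 chow. The secreted Wnt antagonist Sfrp1 had 1.72 from 280, 133, 136 and 212, although its other probe sets gave 0.86, 0.44 and 0.39, and Ccn4, a matricellular Wnt target, read 103, 55.8, 35.2 and 98.6, a difference of 2.37. The fibroblast and pericyte list had a median of 0.43 with 27 of 30 genes above 0, but 1 gene 2-fold higher and 1 lower.

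Among proteases and their inhibitors, Timp1 and Mmp3 differed by diet mainly in Ath29. Timp1, an inhibitor of matrix metalloproteinases, read 541, 625, 249 and 741, so that Western exceeded chow by 0.21 log2 in B6 and by 1.57 in Ath29. Mmp3, stromelysin, read 382, 544, 212 and 673, diet differences of 0.51 and 1.67. Both were lowest on Ath29 chow and highest on Ath29 Western. Of 25 measured genes of this list 3 (12%) were 2-fold higher and 1 (4%) lower, against 4.95% and 6.76% of all genes. The list median was 0.21. Ace, the angiotensin-converting enzyme of endothelium, read 130, 45.2, 81.3 and 103, a difference of 1.86 that was 0.41 with its other probe set.

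The rest of the largest higher values came from unlike genes. Unc5c, a netrin receptor, had 1.90 from 204, 91.3, 94.1 and 157, and 1.44 with its other probe set. Dclk1, a microtubule-associated kinase, had 2.20, but 0.08, 0.78 and 1.68 with others. Sbspon, a matrix protein with somatomedin B and thrombospondin domains, had 2.04, and 1.10 with its other probe set. Mfap3l had 2.18, Zfp454 2.00, the protease-inhibitor chain Itih2 1.98, the GABA-degrading enzyme Abat 1.96 and the DNA polymerase Polq 1.92, each with no reading above the 103 of Ccn4 on B6 chow.

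**Figure D3:**
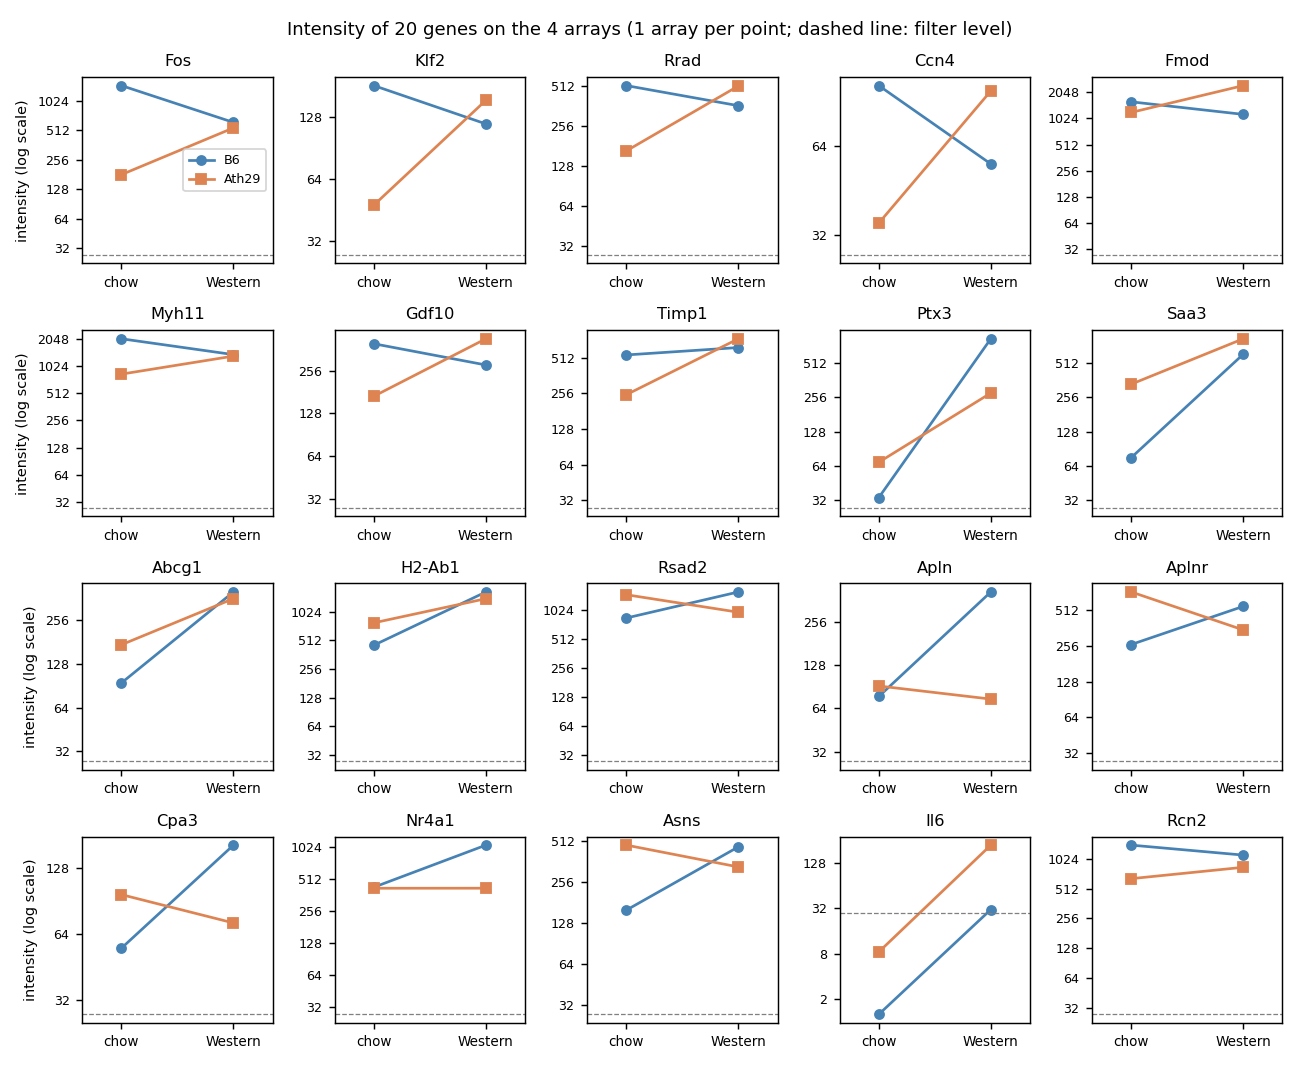
Intensity (log axis, its range set for each gene) of 20 named genes on chow and Western diet in B6 (circles) and Ath29 (squares), 1 array per point, with the filter level dashed. Lines cross for Klf2 and Ccn4 with Ath29 low on chow, approach without crossing for Fos, cross the other way for Aplnr and Rsad2, and slope upward in both strains for Ptx3, Saa3, Abcg1 and H2-Ab1; Il6 was at or below the floor on both chow arrays.

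Several genes of the acute-phase list were higher on Western diet in both strains, and more so in B6. Of its 20 measured members, 10 were 2-fold higher on Western diet in each strain, where 4.11% of all genes were so in B6 and 1.33% in Ath29. The median strain by diet difference was -0.28, with 7 members (35%) 2-fold lower and 1 (5%) higher, against 6.76% and 4.95% of all genes. The 20 measured members include 3 genes that are also in the set-aside lists, Orm1 at -2.06, Hp at -1.12 and Itih4 at 0.58. Ptx3, a pentraxin that binds microbes and matrix, read 33.9, 834, 69.1 and 279, with Western above chow by 4.62 in B6 and by 2.01 in Ath29, a difference of -2.61. Saa3, the serum amyloid A made outside the liver, read 75.9, 613, 335 and 837, a difference of -1.69. Fgl1, a fibrinogen-like protein, read 13.5, 374, 68.2 and 388, a difference of -2.28 with the B6 chow value below the filter level. For Saa3 and Fgl1 the Western arrays were closer to each other than the chow arrays were, so the gap lay on chow, whereas for Ptx3 the Western arrays differed too. The liver-type genes Orm1 and Crp, the latter at -1.42, were read between 14.3 and 52.0, on both sides of the filter level.

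The macrophage list stands beside this as one whose diet difference was of the same sign in both strains. Its summed intensity was 15130, 25904, 16392 and 24939. The median diet difference of its 45 measured genes was 0.75 in B6 and 0.50 in Ath29, against -0.06 and 0.04 for all genes. Above 0 were 39 genes in B6 and all 45 in Ath29. The strain by diet median was -0.14. One gene (2.22%) was 2-fold higher and 1 (2.22%) lower, against 4.95% and 6.76% of all genes. The higher one was Gpnmb, a glycoprotein of lipid-laden macrophages, which read 121, 283, 91.1 and 456, a difference of 1.09. Cd5l, a survival protein of tissue macrophages, was the lower one at -1.17, with a B6 chow value below the filter level. Mpeg1 (-0.81) and Clec7a (-0.78), a pore-forming protein and a glucan receptor, did not reach 2-fold. Among genes outside the muscle and fat lists with all 4 values above the filter level, 18 were 2-fold higher on Western diet in both strains and none 2-fold lower in both, and of the 18, 1 had a 2-fold higher and 3 a 2-fold lower strain by diet difference.

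Antigen presentation and cholesterol export lay lower, again through larger diet differences in B6. The 13 measured MHC class II genes had a median of -0.54, from 0.67 in B6 and 0.24 in Ath29. On Western diet 6 of them were 2-fold higher in B6, against 4.11% of all genes, and 1 in Ath29, against 1.33%. H2-Ab1, a class II beta chain, read 454, 1649, 781 and 1402, a difference of -1.02. It was the one member of the list past 2-fold (7.69%, near the 6.76% of all genes 2-fold lower). H2-Eb1 had -0.94, the costimulator Cd86 -0.86 and the invariant chain Cd74 -0.69. Both chow arrays were below both Western arrays for H2-Ab1, with the wider gap in B6. The 16 measured genes of cholesterol efflux and LXR signalling had a median of -0.41. Of the 16, 3 (18.75%) were 2-fold lower and 1 (6.25%) higher, against 6.76% and 4.95% of all genes. Abcg1, which exports cholesterol to HDL, read 94.9, 401, 174 and 361, diet differences of 2.08 and 1.06. Scarb1, the HDL receptor, read 600, 1370, 979 and 761, a difference of -1.55 that 2 other probe sets gave as -1.60 and -1.55. Scarb1 had the order of the fat genes, with B6 Western highest and B6 chow lowest, and Abcg1 did not, since both of its Western values exceeded both chow values.

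By counts past 2-fold, the list of interferon-response genes lay near the background. Of 58 measured genes, 5 (8.62%) were 2-fold lower, against 6.76% of all genes, and 1 (1.72%) was higher, against 4.95%. By sign the list lay lower, with 38 of the 58 genes below 0 and 20 above it, where 58.8% of all genes lie above 0. The median was -0.14, or -0.25 relative to that of all genes. The median levels on the arrays, 7.31, 7.47, 7.05 and 7.43, however, gave the opposite sign. Rsad2, viperin, an antiviral enzyme, read 842, 1570, 1469 and 966, a difference of -1.50, and -1.49 with its other probe set. Oas2, an oligoadenylate synthetase, read 56.4, 107, 91.1 and 63.3, a difference of -1.45. Ifi27 had -1.18, with -0.58 from its other probe set, and Ifit1, which binds foreign RNA, had -1.11 from 84.1, 141, 93.8 and 72.9. Rsad2 and Oas2 were higher on Western diet in B6 and lower in Ath29. With B6 Western highest and B6 chow lowest, Rsad2, Oas2 and Ifi27 had the order of the fat lists. Ifit1 did not, since it was lowest on Ath29 Western. The GTPase Irgm1 was the 1 higher gene, at 1.03 from 36.9, 34.4, 22.1 and 42.2, and Stat2 had -1.10, both with a value below the filter level.

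Genes with the ISRE in the promoter had either direction. A promoter was at hand for 42 of the 58 genes, and 13 of these (31.0%) held the motif, against 3.46% of all genes with a promoter entry. Of the 13, 10 had a difference below 0, with a median of -0.23, and of the 29 without it 16 did, with a median of -0.07. Rsad2, Ifit1 and Stat2, which were lower, and Irgm1, which was higher, all held it, so a match went with either sign.

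The list of 38 measured endothelial genes had a median of 0.18, with 2 genes 2-fold higher (5.26%, against 4.95% of all genes) and 4 lower (10.5%, against 6.76%). The 4 lower genes were Apln, Aplnr, Flt1 and Kdr. Apln, the apelin peptide, which is made by tip cells of growing vessels and by fat, read 77.3, 412, 91.5 and 74.1, a difference of -2.72 that came from the B6 Western array alone. Its receptor Aplnr read 263, 551, 729 and 349, with Western minus chow at 1.07 in B6 and -1.06 in Ath29, and its other probe set gave a smaller -0.61. The VEGF receptors Flt1, with 184, 361, 309 and 209, and Kdr, with 38.7, 75.5, 51.8 and 35.1, both had -1.53. Flt1, Aplnr and the capillary carbonic anhydrase Car4 (51.8, 239, 150 and 83.6, a difference of -3.04, and -2.94 with its other probe set) were low on B6 chow and Ath29 Western, as the fat lists were. On the other side, the adhesion receptor Selp had 1.12 and the arterial connexin Gja4 had 1.18.

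Several of the lowest values outside the lists came from genes known from fat, muscle or their capillaries. Tmem182, a membrane protein of muscle and brown fat, read 52.8, 525, 122 and 65.7, a difference of -4.21. Rbp7, a retinol-binding protein of capillaries and fat, read 55.1, 195, 190 and 73.3, a difference of -3.19. Nrg4, a growth factor secreted by brown fat, had -2.84, and -3.93 with its other probe set, and Fcor, a FoxO1 corepressor of adipocytes, had -3.08. All 4 had the B6 chow and Ath29 Western arrays below the others, as brown fat did, and none was in the fat or muscle lists, so setting aside the lists did not remove all genes of that kind. Sgk2, a kinase, had -3.41 from 74.5, 487, 283 and 174. Adtrp, which acts on a coagulation inhibitor and on fatty acid esters, had -3.30, Car13 had -3.15, Cntfr, a cytokine receptor subunit, had -2.88 and the pyrimidine-degrading enzyme Dpyd had -2.87. Cyp2b10, a xenobiotic-inducible cytochrome, read 122, 970, 306 and 332, with -2.27 and -2.40 from other probe sets beside -2.88. For Cyp2b10 the Ath29 arrays were nearly equal and the difference came from B6.

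The other 284 of the 648 lower genes did not have the B6 Western array highest together with the B6 chow array lowest. Of these, 4 with known roles in vessels or their nerves were picked after their values were seen. Rgs2, which limits G protein signalling and contraction in smooth muscle, read 1947, 3549, 3771 and 2126, a difference of -1.69. Itga6, an integrin chain of endothelium and epithelium that binds laminin, read 425, 790, 662 and 403, a difference of -1.61. Rgs2 and Itga6 were high on B6 Western and Ath29 chow and low on B6 chow and Ath29 Western, as the fat lists were. The peptide genes Edn3, an endothelin, with 61.5, 159, 65 and 34.4, and Nts, neurotensin, with 39.5, 120, 42.7 and 33.5, had -2.28 and -1.95 and were lowest on Ath29 Western. No diet difference within a strain was 2-fold for Rgs2 or Itga6, so their values add 2 smaller ones of opposite sign.

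Mast cell enzymes were also on the lower side. Hdc, which makes histamine, read 33.0, 102, 74.3 and 57.4, and Cpa3, the mast cell carboxypeptidase, read 55.2, 164, 97.0 and 72.0, each with a difference of -2.00. The chymase Cma1 had -1.10 near the filter level. All 3 were highest on B6 Western and lowest on B6 chow. The tryptase Tpsb2 had -0.58 and was highest on Ath29 chow, with 37.3, 47.3, 55.4 and 46.8. Of the 15 measured mast cell and platelet genes, 10 had a difference below 0 and 5 above it. By size, 3 (20%) were 2-fold lower and none higher, against 6.76% and 4.95% of all genes. Their median was -0.21. In 1 alternative, the one with no filter on low values, the list median lay above that of all genes.

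Metabolic stress and antioxidant genes included further low values. Asns, asparagine synthetase, a target of the amino acid response, read 160, 466, 480 and 332, a difference of -2.08, and -1.25 with its other probe set. The B6 chow array was the one that stood apart for Asns. The glutathione transferases Gsta3 and Gsta4 had -2.23 and -2.03. Sod2, the mitochondrial superoxide dismutase, read 2947, 5612, 4305 and 3881, a difference of -1.08, with -1.03, -1.54 and -1.30 from other probe sets. Sod3, the extracellular superoxide dismutase of the vessel wall, had 1.30 from 190, 150, 89.0 and 173, so the 2 dismutases lay on opposite sides. The 29 measured antioxidant genes had a median of -0.18. Of the 29, 4 (13.8%) were 2-fold lower and 1 (3.45%) higher, against 6.76% and 4.95% of all genes.

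Cytokine genes held both signs. Of 23 measured genes 3 (13.0%) were 2-fold higher and 2 (8.70%) lower, against 4.95% and 6.76% of all genes. The 3 higher genes include Il6, which passed 2-fold only because of the floor. The list median was 0.01. Il6, a driver of the acute-phase response, whose promoter is printed above, read 1.27, 30.9, 8.49 and 220. Both chow values were at or below the floor of 9.59, so the difference of 2.83 at the floor is no bound. Without a floor the diet differences were 4.61 in B6 and 4.70 in Ath29 and differed by 0.09, so what these arrays measured is a higher Il6 reading on Ath29 Western than on B6 Western. Tnfsf13b, the B cell survival factor BAFF, had 1.45 but 0.02 with its other probe set, and the interleukin 1 antagonist Il1rn had 1.42 with the Ath29 chow value below the filter level. Cxcl13, a B cell chemokine, read 17.0, 96.4, 62.9 and 56.0, a difference of -2.67, and 0.28 with its other probe set. NF-kB motifs were in 6 of 20 promoters at hand for this list (30%), against 8.23% of all genes with a promoter entry.

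The largest values with a reading below the filter level often came from 1 array. Plekha7, a protein of epithelial junctions, read 19.0, 6.86, 6.47 and 654, a difference of at least 7.08, while another probe set above the filter gave -0.93. Jchain, which joins polymeric antibodies in plasma cells, read 8.93, 49.6, 154 and 32.2, a difference of -4.63 or lower. Hand2, a transcription factor of heart and sympathetic lineages, read 33.9, 48.1, 163 and 17.6, a difference of -3.72. Wnt3a, a Wnt ligand, had 2.99 with an Ath29 chow value of 10.8, and Ocln, occludin of tight junctions, had 2.83, with 1.54 from its other probe set. A single array stood alone for each of Plekha7, Hand2 and Wnt3a, and no second array of that group exists to set beside it.

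The medians of other classes stayed near that of all genes. Medians were 0.08 for 41 measured ribosomal protein genes and 0.04 for 41 lysosomal genes. They were 0.00 for 37 heat shock and ER stress genes and -0.05 for 36 cell cycle genes. In this order, 1 (2.44%), 1 (2.44%), 0 and 2 (5.56%) genes were 2-fold higher, against 4.95% of all genes. Lower by 2-fold were 0, 1 (2.44%), 1 (2.70%) and 2 (5.56%), against 6.76%. Asns, described above, was the lower one of the heat shock and ER stress list. Sterol synthesis had 0.09 over 16 genes with both signs. Of the 16, 2 (12.5%) were 2-fold higher and 1 (6.25%) lower. Sqle, squalene epoxidase, had 1.28, and Fdft1, squalene synthase, had -1.40 and -2.00 with its other probe set. Clock genes had 0.14 over 19 genes, with Nr1d1 at 1.33, and Cry1 at -1.13, Usp2 at -1.25 and Ciart at -1.79. Of the 19, 1 (5.26%) was thus 2-fold higher and 3 (15.8%) lower, the latter above the share of all genes. The time of day of tissue collection is not in the labels.

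**Figure D4:**
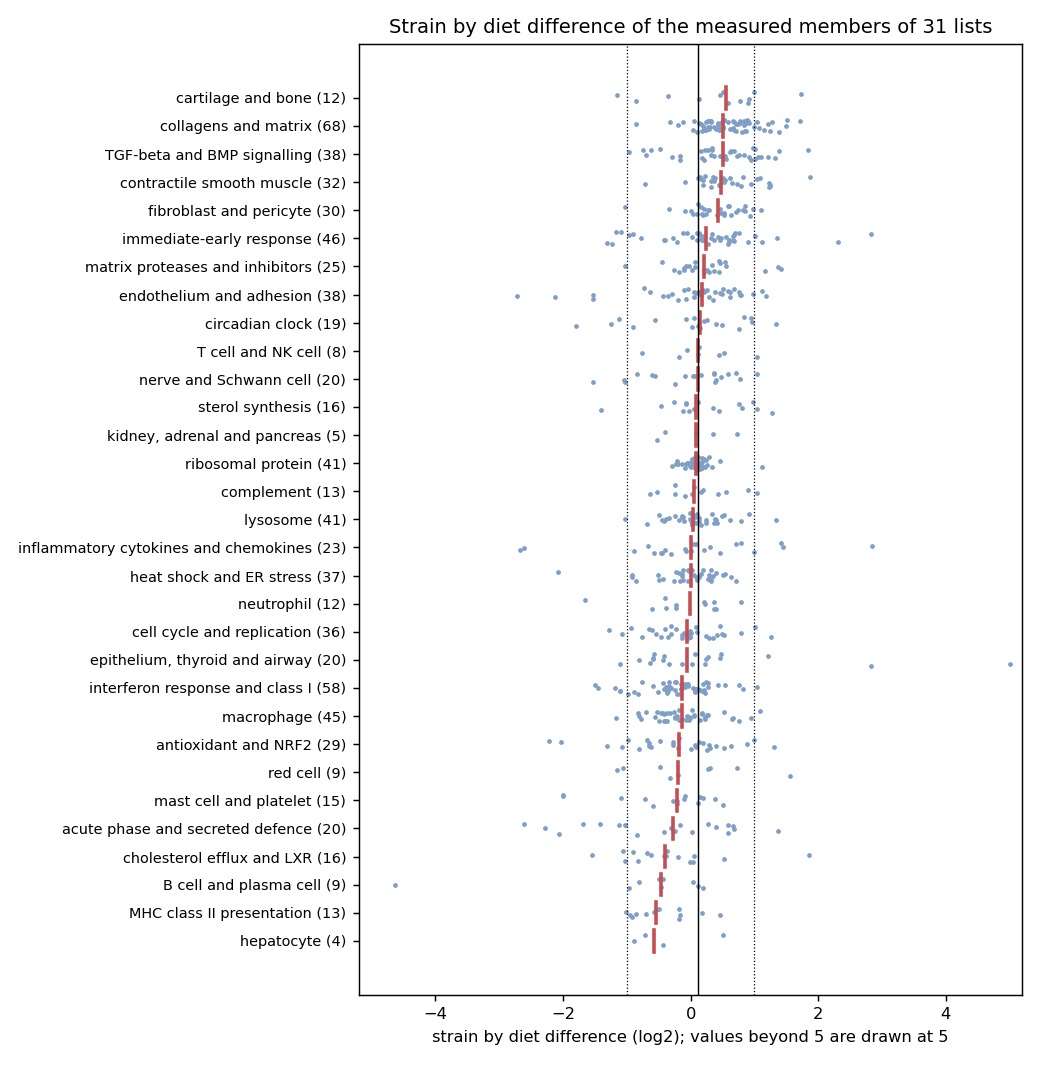
Strain by diet difference in log2 units of each measured member (points) of 31 gene lists, with the number measured in brackets, the list median as a red bar, the median of all genes (0.11) as a solid line and 2-fold as dotted lines. Matrix, TGF-beta, smooth muscle and fibroblast lists sit to the right of the solid line, and MHC class II, efflux and acute-phase lists to its left, while most single members stay within 2-fold.

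Rcn2, a gene of chromosome 9 that encodes a calcium-binding protein of the endoplasmic reticulum, read 1410, 1118, 646 and 841. Its difference was 0.72, below 2-fold, from -0.33 in B6 and 0.38 in Ath29, and it was -0.18 with its other probe set. Rcn2 was lower on both Ath29 arrays than on both B6 arrays. Apoe was read only by a probe set below the filter, so the genotype could not be checked from it.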

How the data were processed

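RNA of 4 mouse groups was measured on Affymetrix arrays, 1 array per group, per the labels. The authors deposited linear intensity values (0.57 to 13421.3). Their software and normalization are not given in the sources used, and an earlier scaling of the arrays cannot be seen. Array medians were 27.9 to 28.8 and were shifted to a common value by factors of 0.990 to 1.02. Values below 9.59 (the 25th percentile) were set to that floor, log2 was taken, and probe sets with a mean at or below 27.4 (the 50th percentile) were left out. One gene symbol was given for 34945 probe sets, several for 932 and none for 9224, and 34754 were found in the RefSeq gene table. Of the 34945 probe sets with 1 symbol, 19152 passed the filter. The probe set with the highest mean stood for a gene. Python 3.11.15, numpy 2.4.6 and pandas 2.3.3 were used, and the script was tested on simulated data. With 1 array per group there is no test, and the number of arrays limits the precision.

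Named genes were, outside the set-aside lists, the 15 highest and 15 lowest with all values above the filter level, the 5 highest and 5 lowest with a value below it and the 10 with the clearest opposite diet differences. Further ones were up to 6 members of each of 31 lists by size of the difference, some of which are also in a set-aside list, up to 4 of each set-aside list, and Rcn2 and Apoe. Members and lists were chosen with earlier results of these data known. Groups were taken from the sample labels. Alternatives tried were 4 other scalings, 2 filters, 2 floors, 2 treatments of probe sets and thresholds of 1.5-fold and 3-fold. Promoters were RefSeq sequences from 250 bases before to 50 after the start.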

Additional observations from a re-analysis of the deposited data

Results flagged for a closer look

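Among named genes outside the muscle and fat lists with 4 values above the filter level, 11 had a diet difference that was at least 2-fold in both strains and opposite in sign, on 1 array per group, so the difference was not tested. In 3 of them it was lower on Western diet in B6 and higher in Ath29, with strain by diet differences of 3.54 for Camk4, 2.83 for Fos and 2.18 for Mfap3l. In the other 8 it was higher in B6 and lower in Ath29, with -2.13 for Aplnr, -3.08 for Fcor, -2.66 for Mfsd4b1, -2.84 for Nrg4, -2.45 for Paqr9, -3.51 for Rasl2-9, -3.19 for Rbp7 and -2.62 for Tinag. Over all such genes, named or not, 15 had this pattern, 12 of them higher in B6. Without the limit on low values 17 were higher in B6 and lower in Ath29 and 6 the reverse. Some low readings lay just above the filter level of 27.4. On B6 chow and Ath29 Western, Tinag read 27.7 and 30.0, and Rasl2-9 read 31.0 and 29.2.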

How the results depend on the processing

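No paired analysis was possible because each group has 1 array and the labels carry no replicate numbers, and leaving out an array leaves no strain by diet difference. Outside the muscle and fat lists the counts of higher and lower genes were 574 and 648. They were 43 and 3490 with arrays set to an equal smooth muscle median (43 and 647 genes shared with the counts as reported), 1054 and 1164 with no filter on low values, 215 and 327 with the filter at the 75th percentile, 1976 and 1455 at 1.5-fold and 86 and 215 at 3-fold. The smooth muscle scale left 1.22% of the called genes on the higher side, against 47.0% as reported. The other alternatives kept both counts within 1.5 times. For single genes, Plekha7 became -1.79 on the smooth muscle scale and -0.93 without a floor, since another of its probe sets then had the highest mean, and Tpm1 became -0.12 with the mean of all its probe sets. Relative to all genes, the following list medians kept their side in the 10 alternatives run for them. The ranges were 0.28 to 0.46 for smooth muscle, 0.37 to 0.45 for matrix and 0.38 to 0.46 for TGF-beta and BMP. MHC class II had -0.68 to -0.21, interferon response -0.27 to -0.16 and macrophage -0.33 to -0.16. Efflux had -0.80 to -0.43 and acute phase -0.45 to -0.10. No shift, the 75th percentile and the smooth muscle scale each differ from the reported scale by a constant per array. That constant largely cancels relative to all genes, so these alternatives could hardly have changed a side.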

Other observations

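Lists of blood cells were measured only in part, since members fell below the filter or had no probe set of their own. Of the T and NK cell list 8 of 37 genes were measured, of the B and plasma cell list 9 of 26, of the red cell list 9 of 21 and of the neutrophil list 12 of 24. Stfa2l1, a stefin of neutrophils, had a strain by diet difference of -1.65, from 33.8, 59.6, 55.7 and 31.3, and the Schwann cell cadherin Cdh19 had -1.53, from 49.9, 91.0, 82.0 and 51.8. The beta-globin gene Hbb-b2 had 1.55, from 90.4, 81.6, 61.2 and 162, while the erythrocyte anion exchanger Slc4a1 had -1.05, from 37.4, 33.1, 113 and 48.2, so the red cell genes did not share a direction. Chil3, a chitinase-like protein of myeloid cells, was higher on Western diet in both strains, with 10.6, 47.7, 16.9 and 99.7.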
